A study of Mus musculus with 4 samples.

Results

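The genes described here make cholesterol and fatty acids. They were 33 genes chosen by name, from the mevalonate pathway to the enzymes that lengthen and desaturate fatty acids, and every probe set annotated to 1 of them alone was taken. Of the 33 genes, 26 were represented on the array by 38 probe sets, out of 8251 genes and 10833 probe sets with a single symbol. The members without such a probe set, Acat2, Pmvk, Srebf2, Scap, Acaca, Fads2 and Acsl1, were not analysed here.

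Lower-jaw molar tooth regions were taken from NMRI mouse embryos at embryonic day 14 and kept in organ culture for 24 h. The medium was DMEM with 10% fetal calf serum in both groups. The treated explants received 1 µM TCDD (2,3,7,8-tetrachlorodibenzo-p-dioxin), a dioxin and ligand of the aryl hydrocarbon receptor, dissolved in DMSO, and the control explants received DMSO at 0.65%. There were 2 TCDD and 2 DMSO arrays (murine U74v2A), each from 1 pool of about 60 explants gathered over 3 experiments. The pools are whole tooth regions, so fewer cells of a type and less RNA per cell cannot be told apart. The culture label of DMSO replicate 2 alone lists ascorbic acid. Labelling started from 11 µg of total RNA in replicate 1 of both groups, from 8 µg in TCDD replicate 2 and from 7 µg in DMSO replicate 2.

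Cells make cholesterol from acetyl-CoA through mevalonate, isoprenoid units, squalene and lanosterol. The transcription factors SREBP-1 and SREBP-2, encoded by Srebf1 and Srebf2, raise the genes of these steps when membrane sterols are scarce, and Insig proteins hold them back when sterols are plentiful. Fatty acids are built from citrate-derived acetyl-CoA and then desaturated and lengthened, and SREBP-1 also acts on many of these genes. In a growing embryonic organ both routes supply new membrane, and cholesterol is also attached to Sonic hedgehog, a signal of the tooth germ.

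Signals are MAS5 intensities scaled by the authors to a target of 100 on each array. A difference is given as TCDD minus DMSO on the scale log2(signal + 16), with its standard error (SE) from a limma fit over all 5783 probe sets whose mean signal reached 50. In this fit 23 member genes took part with 29 probe sets. A gene is described by its probe set of highest mean signal, here called the leading probe set. Median signals over the whole array were 40.8 and 40.2 in TCDD, against 47.1 and 40.0 in DMSO, so DMSO replicate 1 was brighter among dim probe sets. As a check of the labels, Cyp1a1, a xenobiotic-metabolising target of the receptor, had signals of 194.8 and 210.5 in TCDD and 14.7 and 12.7 in DMSO. Mesenchymal genes of the tooth were present, such as Msx1 at 540.6 and 687.1 in TCDD and 605.2 and 705.0 in DMSO. Of the epithelial markers, Dsp and Perp were bright, while Krt5 and Krt14 had signals of at most 10.8 on all 4 arrays.

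No member passed the test. At an adjusted p under 0.05, 0 of the 29 member probe sets were called by limma, where 0.0692% of all probe sets were. At an unadjusted p under 0.05 there was 1, that of Elovl1, where 2.59% of all probe sets were. The smallest adjusted p of a member was 0.997. For 21 of the 23 genes the 95% interval of the fit lay between a halving and a doubling of signal + 16. The exceptions were Acly, with an upper bound of 2.12-fold, and Elovl1, with a lower bound of 0.464-fold. The SE ranged from 0.15 to 0.30 on the log2 scale.

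**Figure D1:**
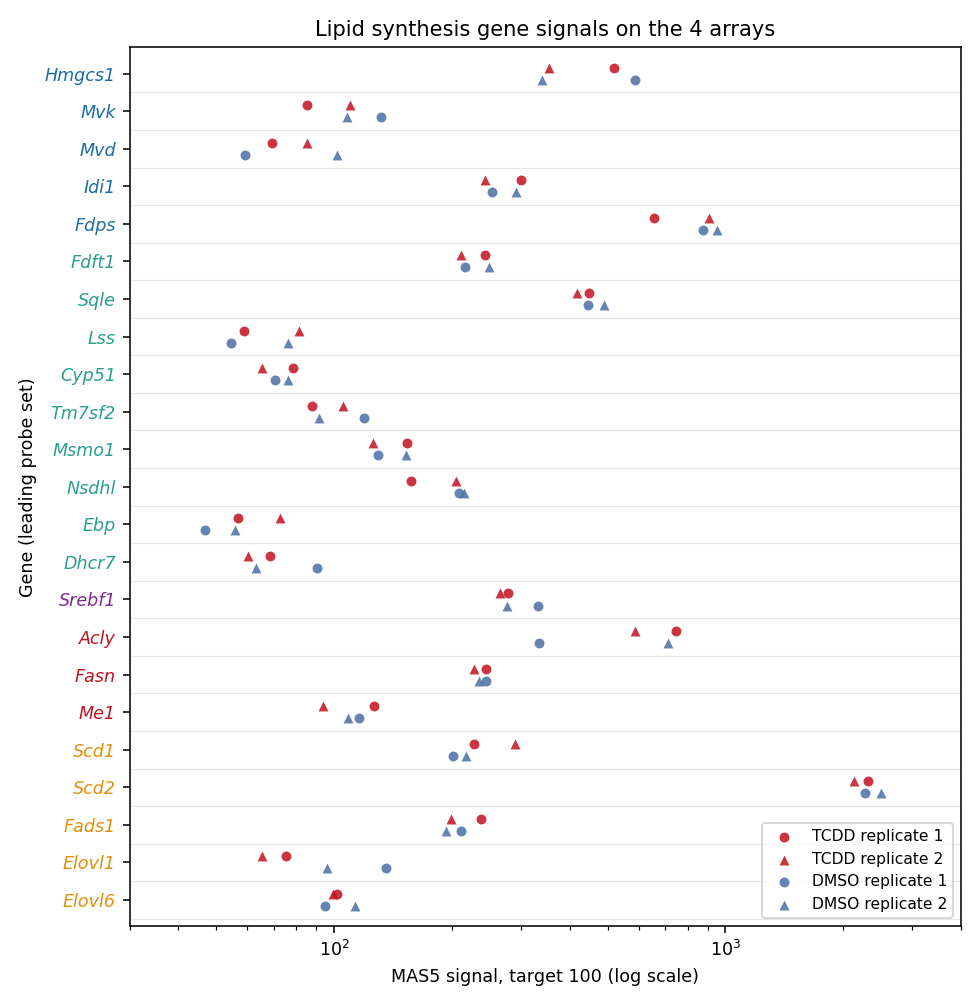
MAS5 signals (log axis) of the 23 member genes in the fit, by leading probe set, with 1 point per array, red for TCDD and blue for DMSO, circles for replicate 1 and triangles for replicate 2. Red and blue points interleave for 19 genes and are apart for Nsdhl, Ebp, Scd1 and Elovl1, and the DMSO replicate 1 point of Acly lies at 333.4, far left of its other points.

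The promoter table of RefSeq (GRCm38.p6), which covers 250 bases before to 50 after a gene's start, held 36 promoters of 27 members, 17 of them among the genes in the fit. The other genes in the fit had no promoter there and were not searched. The stretches below show Hmgcs1, because its window alone among the 17 held a sterol response element, and Elovl1, because it had the largest difference. They run 5′ to 3′ on the gene's strand over the 250 bases before the start. Capitals mark the sterol response element (TCACNCCAC) and the CCAAT box (CCAAT, or ATTGG on the other strand), which binds NF-Y, a factor that works beside SREBP at sterol genes.
Hmgcs1 (chr13:119690101-119690350, plus strand): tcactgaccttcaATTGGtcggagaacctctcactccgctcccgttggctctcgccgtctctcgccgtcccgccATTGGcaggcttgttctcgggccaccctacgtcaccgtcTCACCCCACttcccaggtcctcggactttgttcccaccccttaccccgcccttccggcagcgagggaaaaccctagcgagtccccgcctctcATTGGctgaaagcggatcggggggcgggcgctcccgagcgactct
Elovl1, first start (chr4:118427843-118428092, plus strand): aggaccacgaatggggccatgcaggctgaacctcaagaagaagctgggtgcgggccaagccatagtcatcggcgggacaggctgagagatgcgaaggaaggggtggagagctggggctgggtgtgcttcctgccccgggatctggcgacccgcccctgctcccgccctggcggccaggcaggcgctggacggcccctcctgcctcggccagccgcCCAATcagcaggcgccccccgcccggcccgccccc
Elovl1, second start (chr4:118429451-118429700, plus strand): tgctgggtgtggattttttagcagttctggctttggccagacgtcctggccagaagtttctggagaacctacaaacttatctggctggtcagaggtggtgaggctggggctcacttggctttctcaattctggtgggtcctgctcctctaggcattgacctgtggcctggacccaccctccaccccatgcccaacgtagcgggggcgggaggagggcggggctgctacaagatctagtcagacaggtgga

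The sterol response element of Hmgcs1 began 137 bases before the start, between CCAAT matches that began 176 and 45 bases before it. Searched on both strands, this element was in 5.56% of member promoters and in 1.24% of all 32851 promoters. The member share is 2 of 36 promoters, those of Hmgcs1 and of Acsl1, which was not measured here. The E-box (CACGTG) was in 16.7% of member promoters and 7.15% of all, and 1 of the 17 genes in the fit with a promoter held it. CCAAT was in 63.9% of member promoters and 37.4% of all, and 16 of the 17 genes in the fit held it. The dioxin response element core (TNGCGTG) was in 5.56% of member promoters and 5.07% of all. Its matches were at Insig1 and Acat2, and 0 of the 17 genes in the fit had one in these windows. No searched motif overlapped another in the printed stretches.

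In the early mevalonate genes the TCDD and DMSO groups overlapped. Hmgcs1, which encodes the enzyme that makes HMG-CoA, had signals of 519.7 and 353.5 in TCDD, against 587.0 and 339.6 in DMSO. Replicate 1 was high and replicate 2 low in both groups, so that the groups overlapped and the difference was -0.06 ± 0.27 (SE). Mvk, mevalonate kinase, had 85.1 and 109.6 in TCDD and 132.0 and 107.9 in DMSO, a difference of -0.27 ± 0.22 (SE). DMSO replicate 1 was highest and TCDD replicate 1 lowest, with the remaining pair between them. Its dimmer probe set (95632_f_at), below the filter, differed by 0.34 in the other direction, with a low value of 13.3 in DMSO replicate 1. Mvd, mevalonate diphosphate decarboxylase, had 69.4 and 85.3 in TCDD, inside its DMSO values of 59.3 and 101.8.

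The isoprenoid steps that follow gave the same picture. Idi1, isopentenyl diphosphate isomerase, had 299.6 and 242.9 in TCDD and 253.8 and 292.0 in DMSO, a difference of -0.01 ± 0.20 (SE). The values interleaved. Fdps, farnesyl diphosphate synthase, at the branch point to sterols and to protein prenylation, had 657.9 and 907.8 in TCDD and 878.1 and 952.9 in DMSO. TCDD replicate 1 alone was low, and the difference was -0.24 ± 0.20 (SE). The other probe set of Fdps in the fit (160424_f_at) gave -0.12 ± 0.19 (SE), and both dim ones, 162281_at and 162217_r_at, gave -0.46 and -0.12.

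Among the genes of squalene and lanosterol, Fdft1, squalene synthase, had 242.7 and 211.1 in TCDD and 216.5 and 248.5 in DMSO. Sqle, squalene epoxidase, a rate-limiting step after mevalonate, had 447.7 and 416.3 in TCDD and 444.7 and 489.3 in DMSO. Its difference of -0.11 ± 0.18 (SE) carried a 95% interval of 0.701- to 1.23-fold. In Lss, lanosterol synthase, the replicates parted more than the groups, with 59.0 and 81.4 in TCDD and 54.5 and 76.4 in DMSO. Cyp51, lanosterol demethylase, a P450 enzyme that belongs to sterol synthesis and not to the dioxin battery, had 78.7 and 65.3 in TCDD and 70.7 and 76.1 in DMSO. Its difference was -0.03 ± 0.22 (SE), whereas Cyp1a1 differed by 2.88 ± 0.22 (SE) on the same arrays, with a limma adjusted p of 0.00037.

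The later sterol steps held both directions. Msmo1, methylsterol monooxygenase, had 153.4 and 125.5 in TCDD and 129.5 and 152.5 in DMSO. Tm7sf2, a sterol reductase, had 87.9 and 105.4 in TCDD and 119.0 and 91.3 in DMSO. Both sets of values overlapped. Nsdhl, the sterol dehydrogenase that takes part in removing methyl groups, had 157.4 and 204.9 in TCDD and 207.9 and 215.0 in DMSO at its leading probe set (98631_g_at). Here both TCDD arrays lay below both DMSO arrays, by 3.0 signal units at the nearest pair, and the difference was -0.22 ± 0.21 (SE). Its other probe sets, 93868_at and 98630_at, gave -0.13 ± 0.22 and -0.40 ± 0.24 (SE), and at both the groups overlapped.

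Ebp, the sterol isomerase, was one of few members above DMSO in both arrays, with 56.9 and 72.8 in TCDD and 46.9 and 55.9 in DMSO. The groups were 1.0 unit apart at the nearest pair, and the difference was 0.26 ± 0.24 (SE). Dhcr7, the reductase of the last step to cholesterol, had 68.5 and 60.2 in TCDD and 90.2 and 63.3 in DMSO, with DMSO replicate 1 alone high. Hsd17b7, a sterol ketoreductase, and Sc5d, a sterol desaturase, were below the filter. Hsd17b7 had 44.5 and 27.3 in TCDD and 37.7 and 33.2 in DMSO. The leading probe set of Sc5d had 39.7 and 35.2 in TCDD and 46.4 and 36.5 in DMSO.

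Of the regulators, Srebf1 was in the fit, with 277.7 and 265.2 in TCDD and 331.6 and 276.7 in DMSO. Both TCDD values were below the DMSO mean, but TCDD replicate 1 exceeded DMSO replicate 2, and the difference was -0.15 ± 0.20 (SE). The probe set measures the transcripts of the gene together and not the processed protein that acts in the nucleus. Insig1, which retains SREBP in the endoplasmic reticulum, had signals of 2.7 and 0.7 in TCDD and 6.3 and 1.4 in DMSO, too dim to compare.

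Fatty acid synthesis starts with Acly, ATP citrate lyase, which makes cytosolic acetyl-CoA. It had 746.4 and 588.6 in TCDD and 333.4 and 712.5 in DMSO. DMSO replicate 1 stood alone, far below the other arrays, and the difference of 0.43 ± 0.30 (SE) turned to -0.10 without it and grew to 0.96 without DMSO replicate 2. Within replicate 1 the difference was 1.13 and within replicate 2 it was -0.27. Fasn, fatty acid synthase, was even across the arrays, with 243.9 and 227.6 in TCDD and 244.9 and 234.4 in DMSO. Its 95% interval was 0.733- to 1.32-fold. Me1, malic enzyme, which supplies NADPH, had 126.4 and 93.8 in TCDD, on either side of 115.8 and 108.2 in DMSO.

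Of the desaturases, Scd1, stearoyl-CoA desaturase, had 227.8 and 289.1 in TCDD and 201.6 and 217.5 in DMSO at its leading probe set (94056_at), with no overlap and a difference of 0.27 ± 0.21 (SE). A second Scd1 probe set in the fit, 94057_g_at, gave -0.12 ± 0.25 (SE), with groups that overlapped. Scd2, the related desaturase, had 2310.9 and 2132.3 in TCDD and 2274.0 and 2494.3 in DMSO, a difference of -0.10 ± 0.15 (SE). Its other probe set, 162077_f_at, gave -0.06 ± 0.18 (SE). Probe sets with the suffixes _f_at and _g_at can share probes with related transcripts, and close relatives such as Scd1 and Scd2 may not be kept fully apart by them. Fads1, a desaturase of polyunsaturated fatty acids, had 237.1 and 198.3 in TCDD and 210.4 and 193.6 in DMSO.

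Elovl1, the elongase of very long saturated chains, had the largest difference of any member. Its signals were 75.5 and 65.4 in TCDD, against 135.6 and 96.0 in DMSO. Both TCDD arrays were below both DMSO arrays, with a difference of -0.59 ± 0.23 (SE), or 0.662-fold with a 95% interval of 0.464- to 0.944-fold. The unadjusted limma p was 0.0268 and the adjusted p 0.997. DMSO replicate 1 carried the larger part: without it the difference was -0.38, and without DMSO replicate 2 it was -0.81. The gene has 1 probe set on the array. Elovl6, the elongase of palmitate, had 101.5 and 99.1 in TCDD and 94.5 and 113.2 in DMSO, and its second probe set (94418_at) gave 0.15 ± 0.22 (SE), with 75.6 and 77.9 in TCDD above 63.8 and 71.0 in DMSO.

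**Figure D2:**
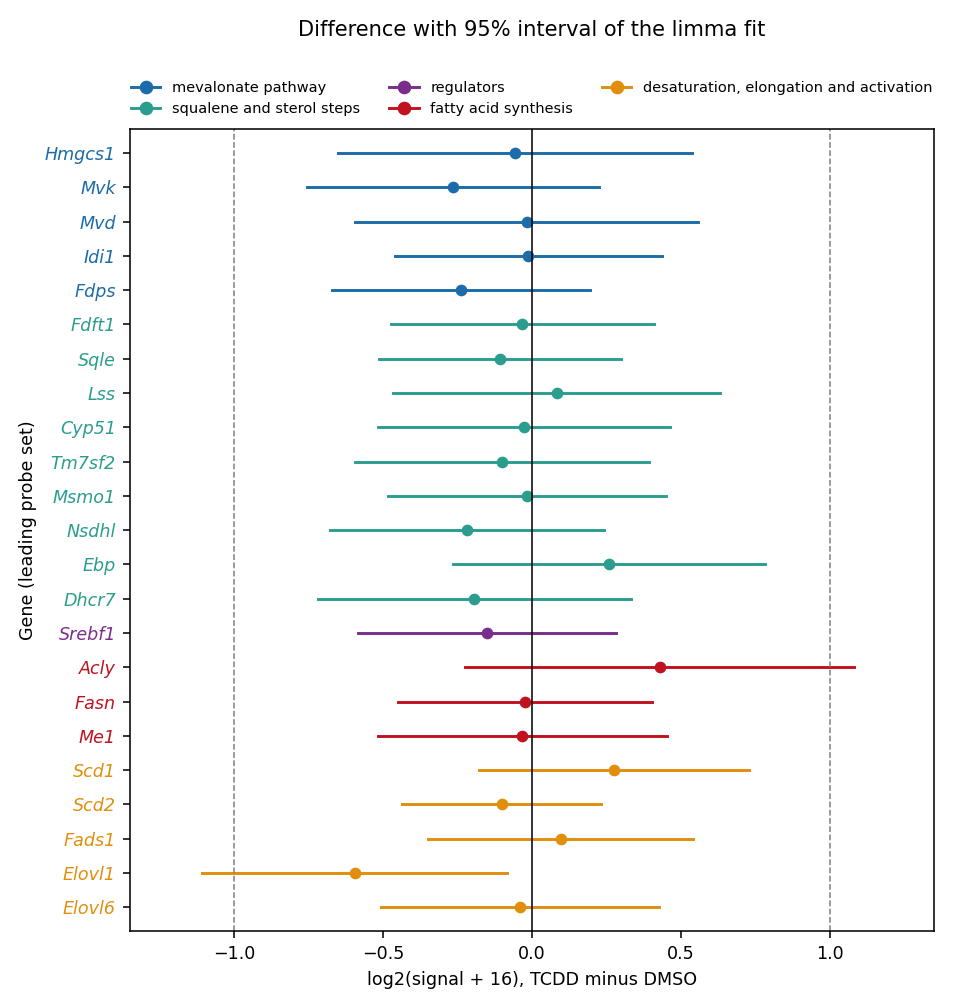
TCDD minus DMSO on the log2(signal + 16) scale for the 23 member genes, as points with the 95% interval of the limma fit, coloured by role, with dashed lines at a halving and a doubling. All intervals except that of Elovl1 include 0, and only those of Elovl1 and Acly reach past a dashed line.

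Counted together, 18 of the 23 genes were lower in TCDD on average and 5 higher, where 47.1% of all genes in the fit were lower. The differences were small: the median was -0.03 for the members and 0.02 for all 4595 genes, and the median size without sign was 0.10 against 0.14. In the mevalonate pathway 5 of 5 genes were lower, with differences from -0.27 to -0.01 and a median of -0.06. In the squalene and sterol steps 7 of 9 were lower. Of the 8 genes of fatty acid synthesis, desaturation and elongation, 5 were lower. No test was made of these counts. They also leaned on single arrays, as 12 of the 23 genes were lower without TCDD replicate 2 and likewise 12 without DMSO replicate 2.

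TCDD and DMSO signals did not overlap in 4 of 23 genes, where 30.2% of all genes did not. The 4 genes were Nsdhl and Elovl1 on the lower side, where 14.1% of all genes lay, and Ebp and Scd1 on the higher side, where 16.1% lay. The count was 7 with quantile normalization and 2 with averaged probe sets, and the share over all genes is not given under these settings. In 22 of the 23 genes at least 1 group had a gap between its replicates larger than the difference between the groups, Elovl1 being the exception, and this held for 82.2% of all genes. The median gap between replicates was 0.25 in TCDD and 0.19 in DMSO for members, and 0.21 in both groups for all genes.

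Differences were also taken within each replicate number. TCDD replicate 1 was lower than DMSO replicate 1 in 9 of 23 member genes (46.1% of all genes), with a median difference of 0.09, while TCDD replicate 2 was lower than DMSO replicate 2 in 16 of 23 (49.2% of all genes), with a median of -0.07. Only 6 genes were lower in both comparisons (Fdps, Nsdhl, Dhcr7, Srebf1, Fasn and Elovl1), which is 26.1% of members and 24.6% of all genes. In 4 genes both were higher (Lss, Ebp, Scd1 and Fads1), against 29.2% of all genes. The largest set, 10 genes or 43.5%, was higher within replicate 1 and lower within replicate 2, a pattern shown by 24.5% of all genes. It held Mvd, Idi1, Fdft1, Sqle, Cyp51 and Msmo1 of the sterol route, with Acly, Me1, Scd2 and Elovl6. In 8 members, Idi1, Fdft1, Sqle, Cyp51, Msmo1, Acly, Scd2 and Elovl6, TCDD replicate 1 was above TCDD replicate 2 and DMSO replicate 2 above DMSO replicate 1, which is 34.8% of members and 22.6% of all genes. No test was made of these shares. Whether the ascorbic acid named for DMSO replicate 2 or the amount of RNA had a part in this was not tested.

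**Figure D3:**
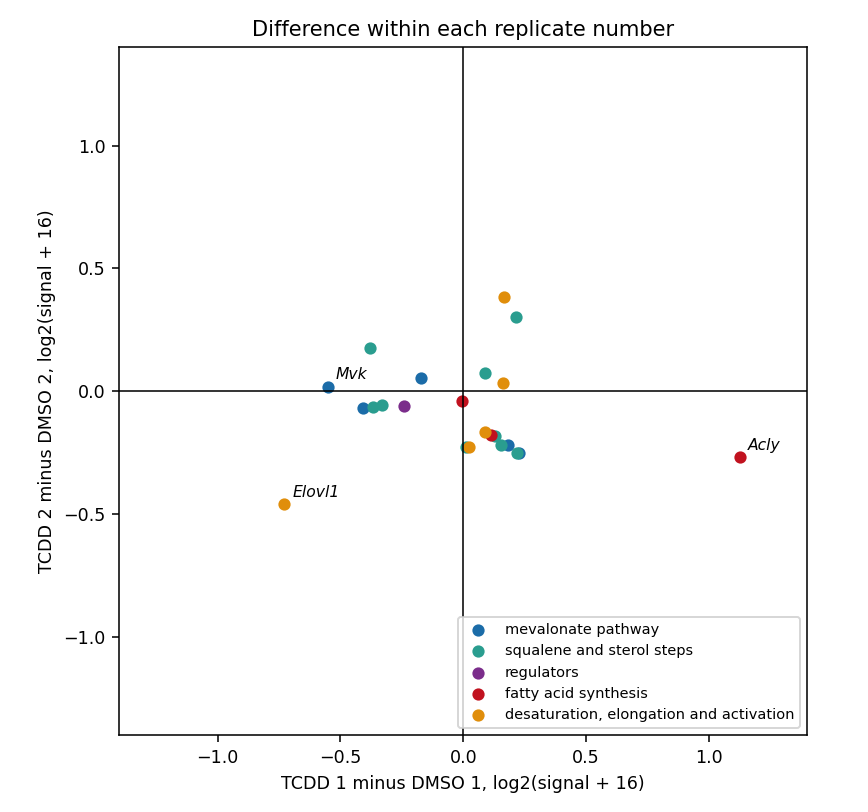
Difference within replicate 1 (horizontal axis) and within replicate 2 (vertical axis), TCDD minus DMSO in log2(signal + 16), with 1 point per member gene, coloured by role. A group of sterol and fatty acid genes sits below and right of the origin, Elovl1 lies far into the lower left, and Acly lies at 1.13 and -0.27.

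Genes around the synthesis routes, listed by function, had 63 of 87 genes on the array and 43 in the fit. Of these 43, 25 were higher and 18 lower in TCDD, 0 passed the limma test at an adjusted p under 0.05 and 1 had an unadjusted p under 0.05, where 0.0692% and 2.59% of all probe sets did. That gene was Acaa2, a thiolase of mitochondrial fatty acid oxidation, with 1119.9 and 1311.4 in TCDD and 736.9 and 1046.0 in DMSO, a difference of 0.46 ± 0.20 (SE) with an unadjusted p of 0.0442 and an adjusted p of 0.997. In the list of fatty acid oxidation 9 of 13 genes were higher, where 52.9% of all genes in the fit were, with a median difference of 0.15. In 3 of the 13 both TCDD arrays were above both DMSO arrays, against 16.1% of all genes. Cpt1a, which admits long-chain fatty acids to mitochondria, had 174.6 and 232.4 in TCDD and 133.6 and 192.0 in DMSO.

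Sterol uptake, export and storage had 4 of 9 genes higher and 5 lower, with a median of 0.00. Abca1, the transporter that exports cholesterol from cells, had 294.5 and 241.9 in TCDD, above 166.2 and 223.6 in DMSO, a difference of 0.44 ± 0.22 (SE) with an unadjusted limma p of 0.07. Lipa, lysosomal acid lipase, differed by 0.34 ± 0.26 (SE). The 3 remaining genes of prenylation and SREBP processing in the fit, Ggps1, Fnta and Mbtps1, differed by 0.17, 0.12 and -0.01.

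In glycerolipid and phospholipid synthesis 4 of 8 genes were higher. Ptdss2, a phosphatidylserine synthase, differed by -0.40 ± 0.24 (SE), and Dgat1, which makes triglyceride, had 44.8 and 49.2 in TCDD, below 62.7 and 65.4 in DMSO, at -0.35 ± 0.23 (SE). Of other fatty acid synthesis and elongation genes 5 of 7 were higher, with Acsl5, an acyl-CoA synthetase, at 0.19 ± 0.24 and Acsl4 at 0.12 ± 0.28 (SE). In fatty acid uptake and binding, Dbi, the acyl-CoA binding protein, had 400.4 and 502.1 in TCDD, below 612.3 and 558.9 in DMSO, at -0.37 ± 0.19 (SE), and Lpl, lipoprotein lipase, was at 0.32 ± 0.28 (SE). None of these genes passed the limma test.

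**Figure D4:**
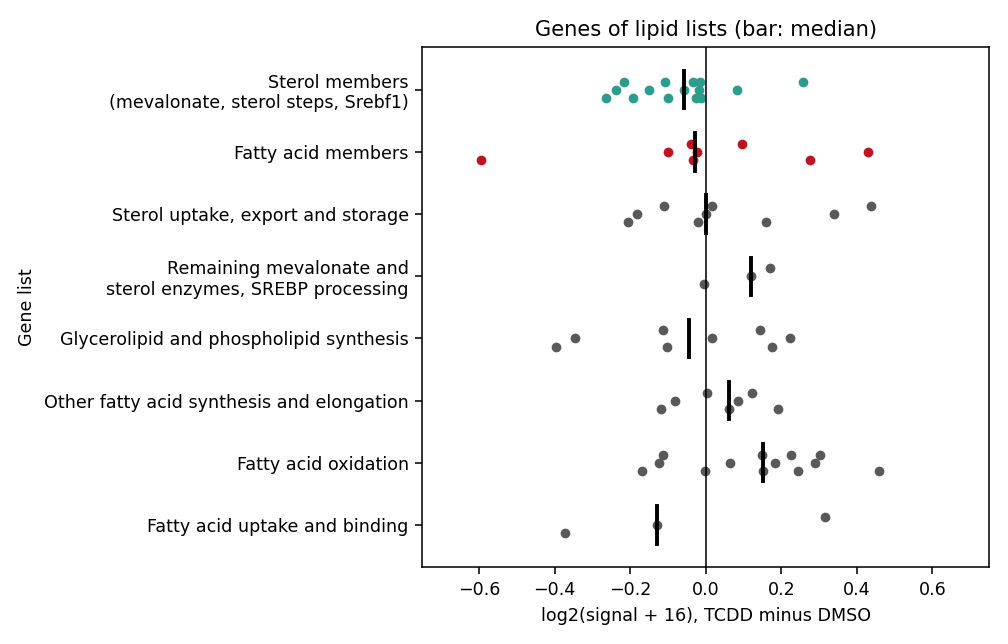
TCDD minus DMSO in log2(signal + 16) for single genes in the fit, by leading probe set, with the median of each list as a black bar, for the members (sterol genes green, fatty acid genes red) and the 6 lists around them (grey). All points lie between -0.59 and 0.46, and the median of fatty acid oxidation is 0.15.

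Of 7 adipocyte markers on the array 5 had mean signals under 50, and Adipoq, Fabp4 and Pparg had at most 21.9 on every array. Lep, which encodes leptin, had 89.2 and 120.7 in TCDD and 207.6 and 60.8 in DMSO, and Lpl had 108.9 and 63.0 in TCDD and 79.2 and 50.8 in DMSO. The summed signal of the list was 234.5 and 206.4 in TCDD and 345.2 and 143.0 in DMSO, with overlap. Sums of some other lists did not overlap. The 9 macrophage markers summed to 1003.5 and 974.0 in TCDD and 831.6 and 727.2 in DMSO. Of the 8 macrophage genes in the fit 8 were higher and 0 lower in TCDD, with a median of 0.32. In 4 of them both TCDD arrays were above both DMSO arrays, against 16.1% of all genes. At an unadjusted limma p under 0.05 there were 3, against 2.59% of all probe sets, and 0 passed at an adjusted p under 0.05. The remaining marker was below the filter. The 7 epithelial markers summed to 2425.5 and 2698.6 in TCDD and 1692.9 and 2324.2 in DMSO. Without the bright Dsp and Perp the epithelial sums overlapped, at 289.5 and 394.1 in TCDD and 363.3 and 385.6 in DMSO. Of the 5 epithelial genes in the fit 3 were higher and 2 lower in TCDD, where 52.9% of all genes were higher. Cdh1, E-cadherin, had 101.2 and 120.5 in TCDD, below 170.3 and 141.1 in DMSO, while Epcam differed by 0.19 and Shh by -0.07. The mesenchymal list summed to 4519.3 and 4790.3 in TCDD and 3940.5 and 4386.2 in DMSO. Without Col1a1 the mesenchymal sums overlapped as well, at 2119.0 and 2513.3 in TCDD and 1979.7 and 2430.2 in DMSO. Of the 8 mesenchymal genes in the fit 5 were higher and 3 lower in TCDD. Their differences ran from -0.33 for Barx1 to 0.42 for Bmp4, with a median of 0.19. The part of these lists in any member's value was not tested.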

How the data were processed

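The deposited table holds intensity signals of Affymetrix Microarray Suite 5.0 (MAS5), 1 per probe set and array, which the authors scaled to a target of 100, per the labels. Of its 49952 cells, 37.1% hold a spreadsheet day serial (38718 to 38990) in place of a low signal. These were turned back into day.month, a step that touched no cell of the member probe sets in the fit. It touched 19 cells in 7 member probe sets below the filter. Among other genes named above, it touched 2 cells of Cyp1a1, 3 of Krt5, 4 of Krt14, 3 of Adipoq, 4 of Fabp4 and 2 of Pparg. No detection calls were used. Symbols came from the platform annotation, with 10839 of 10855 matched in RefSeq, and 66 control probe sets were left out.

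limma 3.58.1 (R 4.3.3; lmFit, then eBayes with a trend) was run on log2(signal + 16) over 5783 probe sets whose mean signal reached 50, with Benjamini-Hochberg adjustment over all of them. Intervals are at 95%, with 10.8 degrees of freedom. The script was tested on simulated data with independent noise on each array and no replicate effect. P-values measure the spread between pools, estimated largely from other probe sets, and their precision is limited by the number of arrays. Of the 10.8 degrees of freedom, 8.85 came from the prior that limma drew from all probe sets in the fit. An exact permutation test of 2 arrays against 2 cannot go below a two-sided p of 0.33 and was not run.

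Every member was named, with the signal of each array where its probe set was in the fit. Of the surrounding lists, genes with an unadjusted p under 0.05 were named, otherwise the 2 of largest difference. The genes Cpt1a and Mbtps1 were named after their values were seen. The members and lists were chosen with earlier results of these data known. Alternatives were other offsets and filters, quantile normalization, leaving out each array, a replicate block, day serials set to 16 and averaged probe sets. The RefSeq promoter table is of GRCm38.p6.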

Additional observations from a re-analysis of the deposited data

How the results depend on the processing

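In each alternative fit, 0 member probe sets passed the limma test, with between 0 and 2 at an unadjusted p under 0.05 outside the replicate block. The replicate block gave 0 of 29 members as well, with 3 at an unadjusted p under 0.05. Its smallest limma adjusted p of a member was 0.19, for Elovl1, while its count over all probe sets was 32 against 4. The 3 member probe sets were those of Elovl1 and Acly and 98630_at of Nsdhl. In the block fit the spread was drawn almost wholly from other probe sets, and the 10.8 degrees of freedom given above do not apply to it. There Acly had an SE of 0.18, against 0.30 in the main fit. Yet its difference was 1.13 within replicate 1 and -0.27 within replicate 2. In the main fit 2.59% of all probe sets had an unadjusted p under 0.05, and this share is not given for the alternatives. Replicate 1 minus replicate 2 in TCDD correlated with that in DMSO at 0.38 over 5783 probe sets and at 0.09 over the 29 of the members. The labels do not say that pools of 1 number belong together. The count over all probe sets was 2 without the filter and 2 to 5 with 1 array left out.

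The count of genes lower in TCDD was 12 to 17 of 23 with 1 array left out, 16 with quantile normalization and 17 with probe sets averaged, and their median difference stayed between -0.11 and -0.02. The count of genes whose groups do not overlap was 2 of 17 with a filter at 100, which Ebp and Elovl1 did not reach. The share over all genes is not given at that filter. Of 23 genes the count was 7 with quantile normalization and 2 with averaged probe sets. It was 12 to 15 of 23 with 1 array left out, where 1 array faces 2 and overlap is rarer by construction. In these fits the lone array is assumed to vary like the other group. Quantile normalization turned the sign of Mvd and Cyp51. Leaving out TCDD replicate 1 or 2 turned the sign of 3 and 8 of 23 genes, and leaving out DMSO replicate 1 or 2 that of 7 and 6. Elovl1 stayed between -0.81 and -0.38 in all alternatives run for it. With 2 arrays per group the intervals reach 0.47 to either side on the log2 scale at the median.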
